A study of Homo sapiens with 66 samples.

Results

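The data analysed here describe where HIF-1α was bound in HKC8 cells, a human kidney proximal tubule line, when HIF-2α was absent. Chromatin immunoprecipitation and sequencing (ChIP-seq) with a polyclonal antibody to HIF-1α had been run on wild-type cells (WT) and on cells with a disrupted HIF-2α gene (HIF-2α KO), each kept at 0.5% oxygen for 16 h. These are 4 of the 66 samples of a series that mapped HIF-1α, HIF-2α and their partner HIF-1β under several oxygen conditions, genotypes and cell lines. Each genotype had 2 libraries, and each library had its own peak list. Peaks of the 4 lists that overlapped by at least 1 bp were merged into 2769 regions, of which 1327 were called in a single library. A WT site is a region called in both WT libraries, and a KO site is one called in both HIF-2α KO libraries. This gave 1235 sites, 1108 of them WT sites and 656 of them KO sites. A site is called kept where it had a peak in all 4 libraries, lost where both WT libraries and no KO library had a peak, and gained where both KO libraries and no WT library had one. Partly kept and partly gained sites had a peak in 1 of the 2 libraries of the other genotype. Lost and gained refer to peak calls, since the lists give no value elsewhere.

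The hypoxia-inducible factors carry an α subunit, HIF-1α or HIF-2α, whose stability depends on oxygen. In normal oxygen, prolyl hydroxylases mark them for destruction through the VHL ubiquitin ligase, and in hypoxia they accumulate and pair with HIF-1β to bind DNA. Both dimers recognise the same core of the hypoxia response element (HRE), ACGTG or GCGTG, yet HIF-1 is best known for glycolytic genes and other promoters, and HIF-2 for enhancers of genes such as erythropoietin. Both isoforms are expressed in kidney tubule lines, and the comparison asks where HIF-1α binds when the other isoform is missing.

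The sequences below show the HRE core at kept, lost and gained sites, so that the cores and their flanks can be read directly. They are the highest-ranked sites of each kind that had a core within 100 bp of the centre, outside untranslated regions, with up to 4 of each fate and some loci left out. Each is read from GRCh37 on the strand given, with HRE cores and AP-1 motifs (TGACTCA or TGAGTCA, the binding site of FOS and JUN dimers) in capitals. A core on the opposite strand appears as CACGT or CACGC.
MRPL45, kept, chr17:36442685-36442729, plus strand: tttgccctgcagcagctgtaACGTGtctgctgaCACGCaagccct
PKM, kept, chr15:72519197-72519241, plus strand: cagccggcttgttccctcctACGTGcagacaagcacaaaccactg
EGLN3, kept, chr14:34407676-34407720, plus strand: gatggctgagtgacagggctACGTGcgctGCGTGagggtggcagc
PFKFB4, kept, chr3:48595149-48595193, minus strand: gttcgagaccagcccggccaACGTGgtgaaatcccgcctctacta
SLC38A1, lost, chr12:46554390-46554434, minus strand: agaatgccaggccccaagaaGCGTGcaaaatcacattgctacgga
RNF212, lost, chr4:1076133-1076177, minus strand: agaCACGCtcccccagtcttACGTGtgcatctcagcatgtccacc
SASH1, lost, chr6:148762413-148762457, plus strand: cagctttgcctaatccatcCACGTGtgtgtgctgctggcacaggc
OLFML2A, gained, chr9:127583194-127583238, minus strand: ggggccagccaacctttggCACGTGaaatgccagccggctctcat
CD46, gained, chr1:207979328-207979372, plus strand: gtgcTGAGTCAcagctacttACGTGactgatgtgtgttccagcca
ZFP82, gained, chr19:36909202-36909246, minus strand: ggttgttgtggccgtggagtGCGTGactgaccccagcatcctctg
RAVER1, gained, chr19:10443954-10443998, minus strand: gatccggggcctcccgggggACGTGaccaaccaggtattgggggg
The windows were chosen for holding a core, so its presence here says nothing about how often each fate has one. The kept EGLN3 window had a pair of cores 4 bases apart, and the gained CD46 window had an AP-1 motif beside its core. The flanks differed from site to site.

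The HIF-2α KO line was made with Cas9 nickase and a pair of guides in exon 3 of HIF-2α, and the knockout was a single clone, so genotype and clone cannot be told apart. The paper reports slightly lower HIF-1α protein in this line, which it calls possibly clonal, and a slight fall in HIF-1α binding to match. The series holds no library with the HIF-2α antibody from the HIF-2α KO line. Peak lists hold no expression, so neither the knockout nor the labelled cell type could be checked here by transcript level. The paper reports, with immunoblots, that the subunit was no longer produced. Read depth is unknown. The replicate numbers name separate samples, and where they do not stand for separate cultures the spread between them is technical. The WT lists stood apart in 1 respect. On chromosome 8 they held clusters of wide peaks. By a rule set after seeing the data, windows were made of the 1 Mb stretches with 5 or more peaks of 4 kb or wider over the WT lists, which gave 118 to 121 Mb and 128 to 130 Mb. The 6 WT lists of this experiment (HIF-1α, HIF-2α and HIF-1β) had 45 to 118 peaks there, of which 11 to 39 were 4 kb or wider. The other 28 lists examined, including 20 from HKC8, had 0 to 32 peaks there and 0 or 1 that wide. Among the 20 were 12 from the time and oxygen experiments, made without a knockout, with 0 to 8 peaks there and 0 that wide. The clusters thus set these WT lists apart from other HKC8 lists as well as from the KO lists. The windows contained 24 lost, 2 partly kept and no kept or gained sites, and results on lost sites are given also without them. Without them the genotype differences described below were −0.60 for the log2 ratio of peak number, 17.2 percentage points for the promoter-proximal share, 6.27 for the HRE share and −3.80 for the AP-1 share.

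HIF-1α was called at fewer places in the HIF-2α KO clone than in WT, and what was called lay closer to promoters. The paper, using sites present in both replicates, describes the distribution of HIF-1 around promoters as unchanged by deletion of HIF-2α. Its wild-type sites also needed a HIF-1β peak, and it reports a promoter-proximal pattern of HIF-1β in the HIF-2α KO line. For sites called here in both replicates, without asking for HIF-1β, median distance to a TSS was 18.3 kb in WT and 4.13 kb in KO. The shares below are of all peaks in each list, also those called in a single library, so they differ in kind from the paper's. WT replicates 1 and 2 had 1913 and 1535 peaks and the HIF-2α KO replicates had 1271 and 915, a log2 ratio of −0.67. The share of peaks within 1 kb of a protein-coding transcription start site (TSS) was 20.1% and 18.3% in WT and 31.5% and 43.1% in HIF-2α KO, a difference of 18.1 percentage points between means. Median distance to a TSS was 18.2 and 22.6 kb in WT and 8.53 and 3.13 kb in HIF-2α KO. An HRE core lay within 100 bp of the peak centre in 64.5% and 61.3% of WT peaks and 74.1% and 69.0% of KO peaks, against 20.9% to 24.0% in windows 2 kb away. For AP-1 the shares were 16.2% and 14.8% in WT and 13.7% and 10.9% in KO, against 3.19% to 3.89% in those windows. The genotypes did not overlap in any of these 4 measures, and with 2 libraries against 2 the exact permutation p was 0.333 for each, two-sided, which is the smallest it can be (adjusted p 0.333 over 5 tests).

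**Figure D1:**
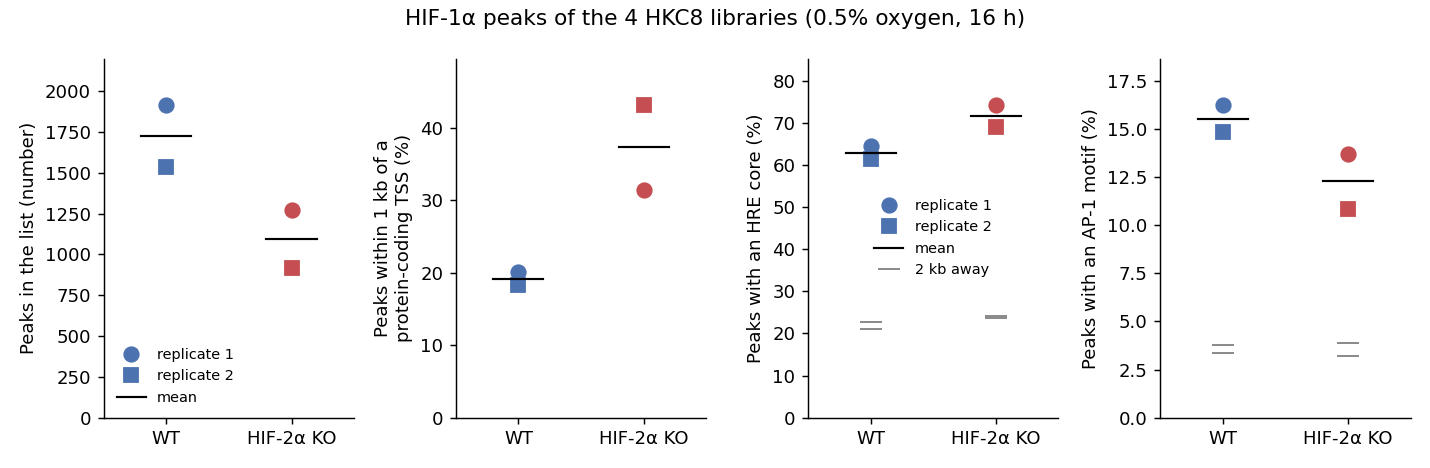
HIF-1α peak number and the shares of peaks (%) near a protein-coding TSS, with an HRE core and with an AP-1 motif, for each of the 4 libraries (circles replicate 1, squares replicate 2, black lines means of 2, grey dashes the same motif search 2 kb from the peaks). Peak number ran from 1535 to 1913 in WT and from 915 to 1271 in HIF-2α KO, and the promoter-proximal share from 18.3% to 20.1% and from 31.5% to 43.1%.

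Libraries of a genotype shared more of their peaks on average than libraries of different genotypes, by a margin smaller than the spread between pairs. Of the peaks in the shorter of a pair of lists, the part also present in its partner was 72.7% for the WT pair and 72.1% for the KO pair. Between genotypes it was 75.1% and 70.5% for WT replicate 1 with KO replicates 1 and 2, and 64.4% and 64.8% for WT replicate 2. The means were 72.4% within and 68.7% between genotypes, so the margin was 3.72 percentage points (one-sided exact permutation p 0.333 over 3 arrangements, the smallest possible). The margin was −0.684 percentage points without WT replicate 2, 7.55 without WT replicate 1, 8.17 with lists of equal length and 5.70 without the chromosome 8 windows. The strongest sites were shared. The best 50 peaks of each of the 4 lists were all found in each of the other lists, and of the best 200 peaks of WT replicate 1, 200 were found in KO replicate 1 and 189 in KO replicate 2. For WT replicate 2 the counts were 194 and 181.

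Of the 1108 WT sites, 529 were kept, or 47.7% (95% Clopper-Pearson CI 44.8% to 50.7%), and 317 were lost, or 28.6%. The remaining 262 were partly kept, and 233 of these had their peak in KO replicate 1, the longer KO list, and 29 in KO replicate 2. Of the 656 KO sites, 50 were gained, or 7.62% (95% CI 5.71% to 9.92%), and 77 partly gained. All such intervals cover counting error only. Kept sites were thus 80.6% of KO sites, and gains were fewer than losses. The KO lists were the shorter ones. When every list was reduced to its best 915 peaks, the length of the shortest, 19.2% of 663 WT sites were lost and 13.1% of 597 KO sites were gained. The counts also depend on each library, since a genotype with 1 library needs 1 call instead of 2. Lost sites numbered 673 without WT replicate 1, 903 without WT replicate 2, 550 without KO replicate 1 and 346 without KO replicate 2, and gained sites numbered 109, 68, 238 and 261. Annotation covered the 1232 sites on chromosomes 1 to 22, X and Y, among them 315 lost sites. Of these, 291 lay outside the chromosome 8 windows, where they were 26.9% of 1080 WT sites. A KO peak lay within 5 kb of 14 of the 315 lost sites, and a WT peak within 5 kb of 3 of the 50 gained sites.

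Whether a WT site was kept went with its rank in the WT lists. Peaks were ranked within a list by the deposited score, and each site was given the mean of its rank percentiles in the WT lists, where 100 is the best. In the lowest-ranked decile of WT sites 10.0% were kept and 70.0% lost, and in the top decile 97.3% were kept and none of 111 was lost. In the upper tercile, 82.7% of 369 sites were kept and 4.88% lost, and in the lower tercile 18.8% of 368 were kept and 55.2% lost. The median score of lost sites was 90.3 and 83.5 in WT replicates 1 and 2, against 291 and 202 for kept sites and 135 and 107 for partly kept sites. The lowest score in the 4 lists was 50, so lost sites lay nearer to the caller's limit in WT cells than kept sites did. Gained sites were low-ranked as well, with a median score of 74.9 and 79.4 in KO replicates 1 and 2.

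**Figure D2:**
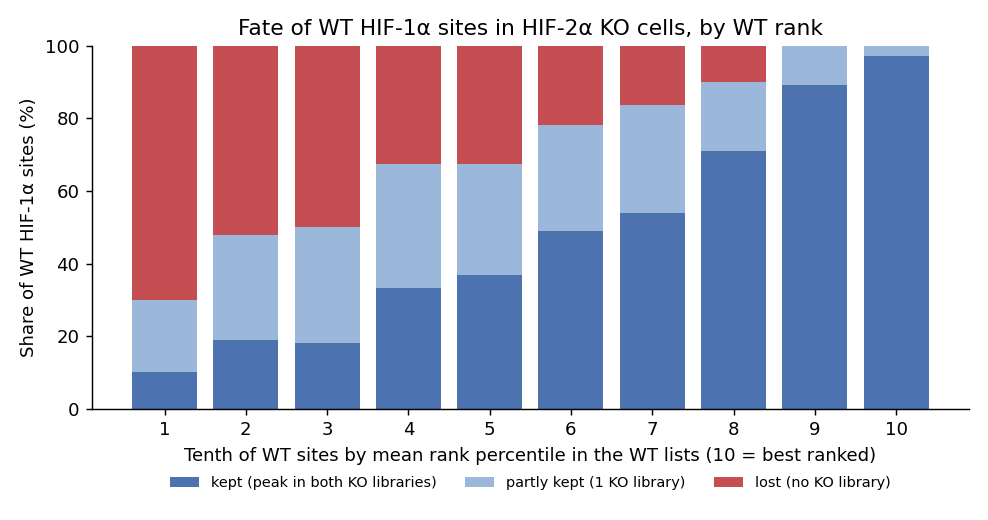
Share (%) of WT HIF-1α sites that were kept, partly kept or lost in HIF-2α KO cells, in deciles of 110 or 111 sites ordered by their mean rank percentile in the 2 WT lists. The kept share was 10.0% in the lowest decile and 97.3% in the top decile, and the lost share was 0 in the top 2 deciles.

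The fates differed in distance to promoters. Of kept sites 33.8% (95% CI 29.8% to 38.0%) lay within 1 kb of a protein-coding TSS, against 11.8% of partly kept sites (8.18% to 16.4%) and 4.44% of lost sites (2.45% to 7.34%). Among gained sites the share was 70.0% (55.4% to 82.1%), and among partly gained sites 56.6% (44.7% to 67.9%). Median distance to a TSS was 7.50 kb for kept, 38.1 kb for lost and 0.306 kb for gained sites. Lost sites lay more than 100 kb from any protein-coding TSS in 23.8% of cases, and gained sites in 2.00%. Base composition moved with promoter distance, with a median GC content within 100 bp of the centre of 55.5% for kept, 47.0% for lost and 64.5% for gained sites. The order of lost, kept and gained sites was the same in lists of equal length, at 3.17%, 31.3% and 59.7% within 1 kb. With KO replicate 1 as the only KO library, 40.9% of gained sites lay within 1 kb. The lost share was 10.7% without WT replicate 2, 7.12% without KO replicate 1 and 9.35% with a call in at least 1 library.

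**Figure D3:**
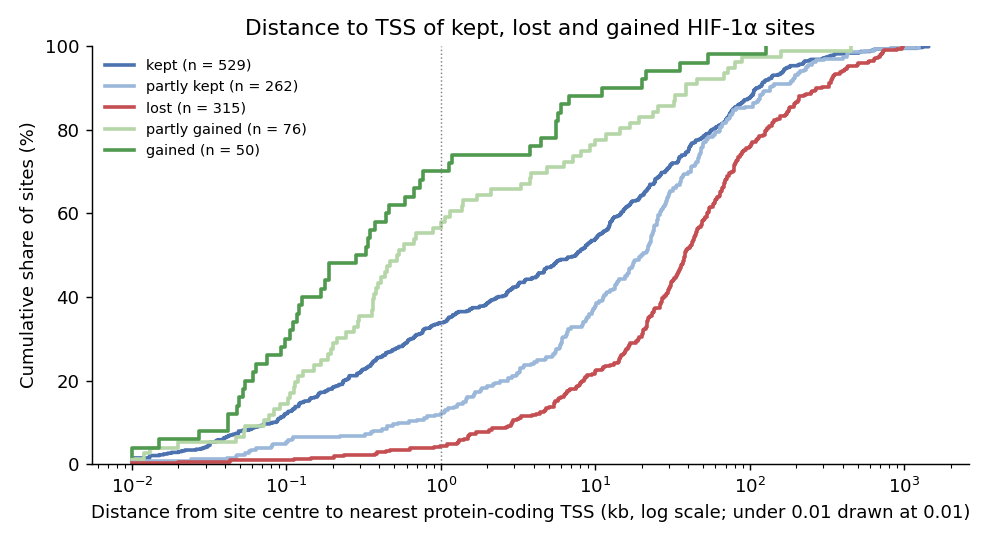
Cumulative share (%) of HIF-1α sites of each fate by distance from the site centre to the nearest protein-coding TSS (kb, log scale, dotted line at 1 kb). The gained curve lies farthest to the left, with 70.0% of 50 sites within 1 kb, and the lost curve farthest to the right, with 4.44% of 315.

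Promoter-proximal and distal WT sites were then compared at similar rank. Within the lower tercile of WT sites by rank, 54.5% of 66 promoter-proximal sites were kept (95% CI 41.8% to 66.9%) and 10.9% of 302 distal sites (7.64% to 15%). In the middle tercile the shares were 86.1% of 79 and 30.0% of 290, and in the upper tercile 94.9% of 79 and 79.3% of 290. The gap between promoter-proximal and distal sites was therefore narrowest where WT rank was best. Sites with and without an HRE core lay closer together. In the lower tercile 21.4% of 220 sites with a core and 14.9% of 148 without one were kept, and in the upper tercile 85.8% of 247 and 76.2% of 122.

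Most sites of each fate had an HRE core. The share was 70.9% for kept (95% CI 66.8% to 74.7%), 65.6% for partly kept, 57.8% for lost (52.1% to 63.3%), 73.7% for partly gained and 64.0% for gained sites (49.2% to 77.1%), and 21.0% to 27.1% in windows 2 kb away from the same sites. In the chromosome 8 windows 3 of 24 lost sites had a core, and outside them the lost share was 61.5%. The form of the core differed in its frequency. ACGTG was present at 56.9% of kept, 45.7% of lost and 42.0% of gained sites, and GCGTG at 31.4%, 20.6% and 42.0%. No background was taken for each form, and the fates differed in GC content, with medians of 64.5% at gained and 47.0% at lost sites. Whether the form of the core differed beyond base composition was not tested. For comparison, 40.9% of 78564 windows of the same length around annotated protein-coding TSS held a core of either form. AP-1 motifs were at 13.7% of lost sites (95% CI 10.1% to 17.9%) and 13.8% of kept sites (11% to 17%), and at 3 of 50 gained sites, against 2.84% to 5% in windows 2 kb away. CACGTG, which contains ACGTG and is also the E-box of MYC and USF proteins, was found at 9.64% of kept, 6.35% of lost and 8% of gained sites. A match describes the letters of a window and does not show which factor was bound.

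HIF-2α had been precipitated from the same WT cells, and its lists were not used to define the fates. As defined here, lost sites were the ones most often called with HIF-2α. HIF-2α replicates 1 and 2 had a peak at 91.1% and 94.0% of lost sites, 77.7% and 78.3% of kept sites and 14% and 16.0% of gained sites. Of the 879 WT sites with HIF-2α in both replicates, 44.1% were kept and 32.1% lost, and of the 142 with HIF-2α in neither, 64.8% were kept (95% CI 56.3% to 72.6%) and 9.86% lost (5.50% to 16.0%). Outside the chromosome 8 windows 91.4% of lost sites had HIF-2α in both replicates. The order of lost and kept sites rested on calls in both WT libraries. HIF-2α was called in both replicates at 89.5% of lost and 73.3% of kept sites, but at 67.0% and 71.5% when WT replicate 1 was left out and at 64.5% and 68.2% without WT replicate 2. With a call in at least 1 library of a genotype the shares were 59.7% and 65.5%. Gained sites were lowest in all of these, at 6.00% as reported and 8.82% to 13.9% in the others. Sites without HIF-2α were also more often promoter-proximal, at 53.5% against 11.6%. Among distal sites of the lower tercile by HIF-1α rank, 67.3% of 251 sites with HIF-2α in both replicates were lost (61.1% to 73.1%) and 30.0% of 30 sites without it (14.7% to 49.4%). In HIF-1α KO cells, the HIF-2α lists had a peak at 79.4% of lost sites in each replicate and at 77.9% and 80.5% of kept sites. HIF-2α was thus called at most lost sites also in cells without HIF-1α.

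HIF-1β, the partner of either isoform, was called at nearly all kept sites in HIF-2α KO cells and at fewer of the lost ones. The shares in KO replicates 1 and 2 were 99.6% and 98.3% of kept, 86.0% and 80% of gained and 59.4% and 42.5% of lost sites. In WT cells HIF-1β was called at 95.2% and 95.6% of lost sites. The HIF-1β lists were shorter in HIF-2α KO, at 2550 and 2085 peaks, than in WT, at 6199 and 8279. Of the 315 lost sites, 109 had HIF-1β in both KO libraries, 103 in 1 and 103 in neither. The 109 sites with HIF-1β in both had a median WT rank percentile of 48.8 for HIF-1α and the 103 with none 32.6, and HRE cores were present at 56.9% and 54.4% of them. Thus 34.6% of sites without a HIF-1α call in HIF-2α KO cells had a HIF-1β call in both KO libraries. HIF-1β also pairs with factors other than HIF, though the paper states that its HKC-8 cells were not treated to induce such partners. Which partner HIF-1β had at these sites was not tested. In WT cells HIF-1β had a peak at 74.0% and 86.0% of gained sites.

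A separate HKC8 experiment of the series, on HKC8 cells at 0.5% oxygen for 16 h, had HIF-1α lists of 1313 and 951 peaks. These were called at 48.2% and 33.5% of kept sites, at 0.635% of lost sites in each replicate and at 42.0% and 24.0% of gained sites. Counting a peak in either list, 4 of 315 lost sites and 22 of 50 gained sites were called, or 1.27% and 44%. The gained share was 14.7% without KO replicate 2, 23.7% without KO replicate 1 and 16.0% with a call in at least 1 library. The lost share was 3.47% without KO replicate 1 and 3.47% with a score of at least 100. Lost sites stayed below gained sites in each of the alternatives run. The contrast was present within ranks. In the lower tercile by WT rank, 21 of 69 kept sites and 3 of 203 lost sites were called, and beyond 1 kb of a TSS the counts were 152 of 350 kept and 4 of 301 lost. The peaks of that experiment were narrower, with medians of 337 and 257 bp outside the chromosome 8 windows against 978.5 to 1031 bp in the 4 libraries compared here, and 34.5% and 22.8% of them lay within 1 kb of a TSS. RCC4, a renal carcinoma line without functional VHL, had been kept in normoxia, so treatment as well as cell line differed from HKC8. There HIF-1α was called at 80.2% and 59.7% of kept, 38.7% and 13% of lost and 84.0% and 40.0% of gained sites. Gained sites, called in neither WT library, thus had HIF-1α calls in libraries from cells without the HIF-2α knockout.

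**Figure D4:**
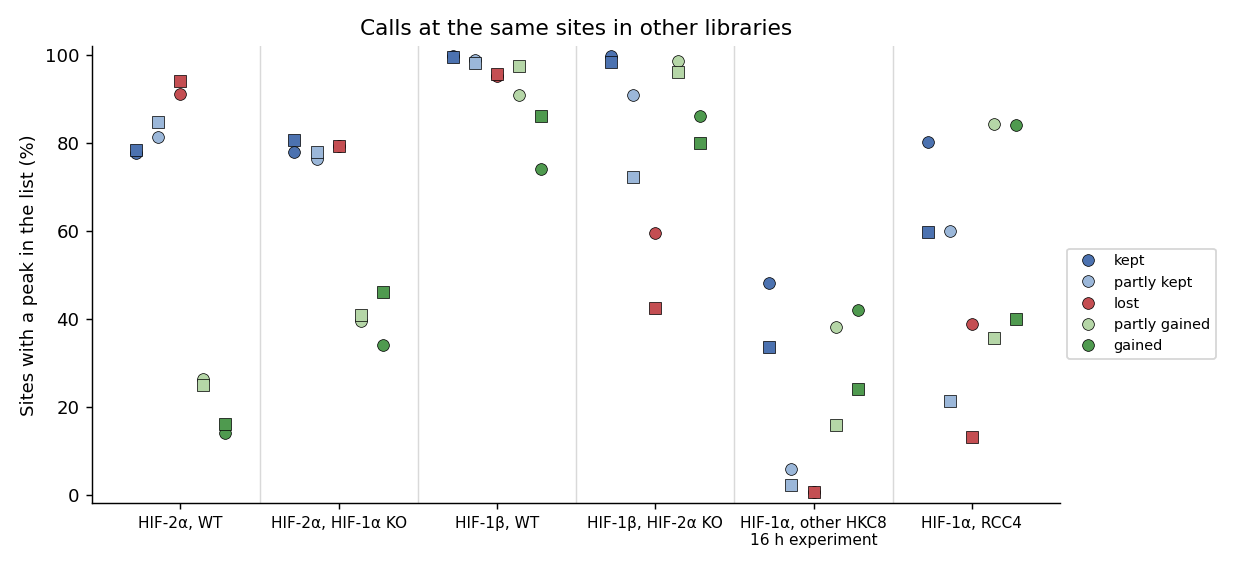
Share (%) of kept, partly kept, lost, partly gained and gained HIF-1α sites that had a peak in other lists (circles replicate 1, squares replicate 2). HIF-2α in WT cells was called at 91.1% and 94.0% of lost and 14% and 16.0% of gained sites, whereas HIF-1α of the other 16 h experiment was called at 0.635% of lost and 42.0% and 24.0% of gained sites.

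The 10 best-ranked kept sites stood within the best 21 peaks of every list. The site 0.158 kb into KDM3A (chr2:86667295-86668637, centre in a UTR), a histone H3 lysine 9 demethylase, ranked 1, 1, 1 and 5 in WT replicates 1 and 2 and KO replicates 1 and 2, in that order here and below. The intronic site of PKM (chr15:72518333-72520042), the pyruvate kinase gene, ranked 6, 5, 6 and 8. The intronic site of EGLN3 (chr14:34407036-34408451), a prolyl hydroxylase that limits HIF, ranked 2, 2, 8 and 17. The site 12.9 kb upstream of DDIT4, an inhibitor of mTORC1, ranked 17, 8, 21 and 6. The site at GPI, glucose-6-phosphate isomerase, had 9 HRE cores within 100 bp of its centre and ranked 12, 18, 12 and 7. The other sites among the 10 best lay nearest to MRPL45, NDRG1, PFKFB4, C4orf3 and GAPDH. Of the 10 best kept sites, 5 lay within 1 kb of a TSS. All 10 had HIF-2α peaks in both WT replicates, as did 73.3% of all kept sites.

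The best-ranked lost sites were distal and stood well below these. The best was intergenic (chr12:46553800-46555010), 79.3 kb from a TSS of SLC38A1, a neutral amino acid transporter. It had a rank of 263 and 226 and a score of 310 and 289 in WT replicates 1 and 2. Neither KO list had a peak there. An intronic site of RNF212 (chr4:1075465-1076714) ranked 322 and 223, an intronic site of SASH1 (chr6:148761860-148762973), a signalling scaffold, 387 and 278, and an intronic site of FTO (chr16:53801797-53803267), an RNA demethylase, 440 and 271. None of the 10 lay within 1 kb of a TSS, and 6 had no HRE core within 100 bp of the centre. All 10 had HIF-2α peaks in both WT replicates, as did 89.5% of all lost sites. Of these 10 sites, 3 were the broad chromosome 8 regions nearest to TNFRSF11B and SAMD12. The 24 lost sites of those windows had a median width of 5350.5 bp. Others had MYH13 and ZP3 as their nearest genes.

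Gained sites were mostly promoters. The best was a distal exception, 20.1 kb from a TSS of OLFML2A (chr9:127582605-127583778). It had a rank of 108 and 351 and a score of 419 and 114 in KO replicates 1 and 2. The MIF promoter (chr22:24235863-24237173), of a secreted inflammatory factor, ranked 691 and 183, and the PGAM1 promoter (chr10:99185174-99186452), of the glycolytic phosphoglycerate mutase, 822 and 76. The KO replicates disagreed widely on these ranks. Promoters of KDM2A, a histone demethylase, of VDAC1, the main channel of the outer mitochondrial membrane, and of ROMO1, a mitochondrial membrane protein, were among the 10 best, with AGPAT5, ZFP82 and RAVER1. The site nearest to CD46, a complement regulator, lay 35.7 kb from a TSS of that gene. Of the 10, 8 lay within 1 kb of a TSS and 5 had an HRE core near the centre. The MIF, KDM2A, PGAM1 and RAVER1 sites were called in both HIF-1α lists of the other 16 h experiment, and the AGPAT5, VDAC1 and ROMO1 sites in 1.

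Kept sites also changed order among themselves. Ranks were retaken among the 529 kept sites alone, so that each list was ranked over the same sites. List length still bears on which sites are kept, since each needed a call in the shortest list. The Spearman correlation of these sites' ranks, a description over 529 sites, was 0.79 between the WT replicates, 0.71 between the KO replicates and 0.56 to 0.72 between libraries of different genotype. Of the 529 kept sites, 115 stood better in both KO lists than in both WT lists, 127 stood worse and 287 did neither. With so few lists, some sites separate in this way by chance. The number expected by chance was not worked out, so the counts are a description and do not measure an effect of genotype. Of the 115, 60.9% lay within 1 kb of a TSS (95% CI 51.3% to 69.8%), against 7.09% of the 127 (3.29% to 13%) and 34.8% of the 287 others. HIF-2α was called in both WT replicates at 51.3% of those that stood better and 96.1% of those that stood worse. The direction of reordering thus ran parallel to the difference between gained and lost sites. AP-1 motifs were at 9.57% and 14.2% of the respective sets, with overlapping intervals.

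**Figure D5:**
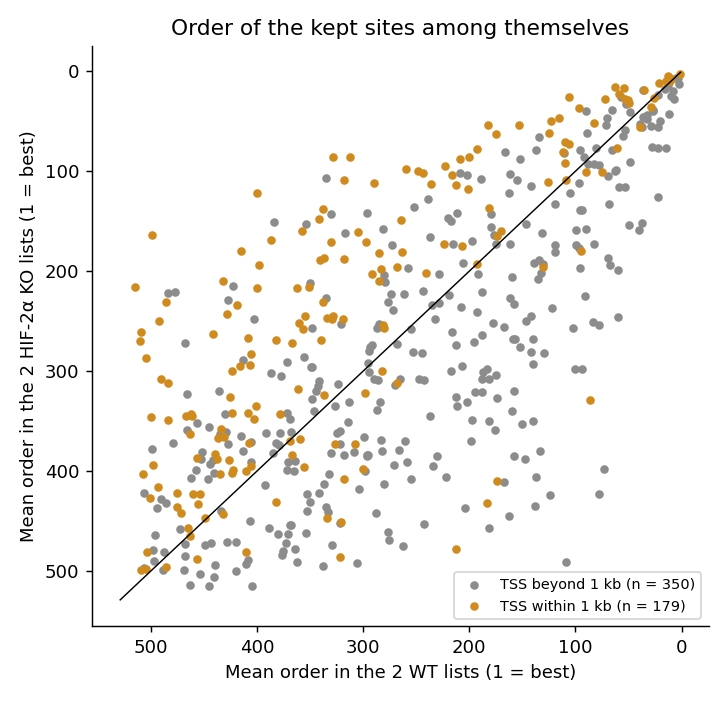
Mean order of the 529 kept HIF-1α sites among themselves in the 2 WT lists (x axis) and the 2 HIF-2α KO lists (y axis), with 1 the best score, at the right and the top, and the diagonal marking equal order. Promoter-proximal sites (orange, 179) lie mostly above the diagonal, better placed in KO, and distal sites (grey, 350) more often below it.

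The named sites with the largest moves were chosen by rank percentile in the whole lists, which differ in length, and are given by their order among kept sites, by which other sites can move further. The rises included metabolic promoters. At the PDK1 promoter, which encodes the kinase that blocks pyruvate entry into mitochondria, the order among kept sites was 517 and 502 in WT and 349 and 172 in KO. The promoter of PPP1R3C, a glycogen-targeting subunit of protein phosphatase 1, went from 522 and 450 to 397 and 64, and that of LGALS8, a galectin, from 523 and 507 to 238 and 194. ZNF654 and PPAN completed the 5, and all 5 lay within 1 kb of a TSS. The falls included a site 606 kb from CITED2, a HIF-inducible protein that binds p300. The order of this site was 159 and 58 in WT and 467 and 514.5 in KO. The other falls were at sites near ASPH, ARHGAP45, PLIN2 and SH3BP5. PLIN2 coats lipid droplets, and its site 12.6 kb upstream went from 156 and 170 to 386 and 505. Some of these sites were near the lowest score of 50 in some lists. WT scores were 63.3 and 64.6 at PDK1 and 59.8 and 60.8 at LGALS8. In KO replicate 2 the score was 53.0 at CITED2 and 54.2 at PLIN2.

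Genes with known roles in hypoxia were taken from 14 lists of 118 genes in all. A site was assigned to its nearest protein-coding TSS within 100 kb, and 56 genes had one. Of their 69 WT sites 51 were kept (73.9%), 9 partly kept and 9 lost, against 49.9%, 24.2% and 25.9% of all 927 WT sites within 100 kb of a TSS. The lists hold genes chosen as HIF targets, with earlier results of these data known, so that share is a description.

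In glucose uptake and upper glycolysis, 7 of 10 WT sites were kept, 3 were partly kept and none was lost. The HK2 promoter, of the kinase that traps glucose, ranked 190, 301, 82 and 148, and ALDOA, aldolase, 329, 83, 97 and 11. The intronic site of SLC2A1, the GLUT1 transporter, 2.00 kb from a TSS, ranked 620, 675 and 1004 and had no peak in KO replicate 2. In lower glycolysis, 5 of 6 WT sites were kept, and PGAM1 and ENO2 had gained sites. The ENO1 promoter, of enolase 1, ranked 132, 88, 51 and 1, and PGK1, phosphoglycerate kinase, 68, 51, 32 and 13. LDHA, which makes lactate from pyruvate, ranked 610, 338, 294 and 20. At HK2, ALDOA, ENO1, PGK1 and LDHA the best of the 4 ranks was in a KO list, and the KO lists were shorter. At ALDOA, KO replicate 1 ranked below WT replicate 2. The best rank was in a WT list at the partly kept sites of the glycolysis lists. The same held at kept sites of PKM (6, 5, 6 and 8) and 75.3 kb from a TSS of PFKFB3 (175, 203, 214 and 625). Glycogen genes kept 3 of 3 WT sites, with GBE1, the branching enzyme, at 99, 69, 89 and 14.

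In the lists of chromatin and autophagy genes every WT site was kept. All 6 histone demethylase sites were kept, at KDM2B, KDM3A, KDM4B, KDM4C, KDM5B and KDM5C, and 5 of them lay within 1 kb of a TSS. All 6 sites of mitophagy and mTOR stress genes were kept, at BNIP3L, a mitochondrial autophagy receptor, DDIT4 and MXI1. Among secreted vascular factors, the sites at ANGPTL4, ADM, STC1 and STC2 were kept. CA9, the hypoxia-induced carbonic anhydrase, ranked 52, 48, 36 and 21 at its promoter. Collagen modifying enzymes kept 4 of 6, and both lost sites were intronic in LOXL2, which had a kept site as well. The intronic site of SLC4A4, the sodium bicarbonate cotransporter of the proximal tubule, was lost from ranks of 453 and 413.

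Growth factor and receptor genes had 6 WT sites, of which 2 were kept and 4 lost. A lost site lay 42.9 kb from a TSS of TGFA, an EGFR ligand (ranks 693 and 378 in WT). An intronic site of MET, the hepatocyte growth factor receptor, 34.5 kb from a TSS, was also lost (883 and 588). Of the lost EGFR sites, one was intronic, 43.8 kb from a TSS of EGFR (1358 and 643). The other was intergenic, 51.4 kb from a TSS (853 and 1170). The kept ones were an intronic site of EGFR, 22.6 kb from a TSS, and a site 56.6 kb from a TSS of IGFBP3. All 6 were distal, and all 6 had HIF-2α in both WT replicates. Both traits were common among WT sites. Of 1106 annotated WT sites, 879 had HIF-2α in both replicates, and the lower quartile of their TSS distance was 2.01 kb. Both lost EGFR sites ranked beyond 915 in a WT list and were no WT sites in lists of equal length, where 3 of the 9 lost sites of all gene lists stayed lost, as 3 did with a score of at least 100. Iron and erythropoietin genes had 4 of 5 WT sites kept, at CP, HMOX1 and FTH1, and TFRC, the transferrin receptor, had a partly gained promoter. In the AP-1 family, JUN had a kept site, FOS and FOSL2 had a partly kept and a partly gained site each, and the FOSL2 promoter was gained. The remaining lists were small. Lactate and pyruvate fate had 2 of 2 kept, the HIF subunits and oxygen sensors 2 of 3, pH and carbonic anhydrase genes 2 of 5 and clock genes 2 of 3, the last all at BHLHE40.

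Some genes had both kept and lost sites. Within 100 kb, 440 genes had a kept site and 222 a lost site, and 16 had both. The overlap expected if fates fell on genes at random was not worked out, so the count is a description. At BHLHE40, a clock and hypoxia repressor, sites 0.0400 and 7.69 kb from a TSS were kept, with ranks of 134, 93, 102 and 40 and of 57, 15, 19 and 19, and one 43.9 kb away, with ranks of 1010 and 465 in WT, was lost. At FTH1, ferritin heavy chain, sites 57.9 and 77.3 kb away were kept and one 45.8 kb away was lost. At NDRG1 sites with WT ranks of 5 and 4 and of 238 and 490 were kept, and those with ranks of 588 and 312 and of 1573 and 1401 were lost. SMAD3, a TGF-β effector, had 1 kept, 2 partly kept and 1 lost site. Every lost site ranked below every kept site of the same gene at 14 of the 16 genes in WT replicate 1 and at 12 in WT replicate 2. SMAD3 was an exception in both, with its lost site at 601 and 524 and its kept site at 649 and 1207. Lost sites ranked below kept sites in general, with median percentiles of 45.0 and 84.7 in WT replicate 1. The number of genes expected to show this order for that reason was not worked out. The counts therefore do not show an order particular to sites of the same gene. A kept and a gained site shared a nearest gene once, at MACROD2, and a lost and a gained site never did. Only 49 genes had a gained site within 100 kb, so counts this low do not show that fates avoid each other.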

How the data were processed

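The authors deposited a peak list for each library, with a score in column 5 whose scale is not given in the sources used here, and no depth or read counts. Per the submitters' processing notes, reads were handled with Trim Galore 0.3.3, BWA 0.7.5a-r405, SAMtools 0.1.19, Picard 1.106 and bedtools 2.17.0, and peaks were called with MACS on GRCh37. The study also describes T-PIC calls and a background filter. Scores were used only to rank peaks within a list. The lowest score was 50. Peaks were merged with an overlap of 1 bp, and 34 lists were used. Of 5634 peaks, 15 lay off the main chromosomes and were not annotated. Distances were taken to 89217 protein-coding TSS of GENCODE 44 lifted to GRCh37, and motifs were sought on both strands within 100 bp of a centre. Libraries were compared by exact permutation tests with Benjamini-Hochberg adjustment, and site fates were described by shares with 95% Clopper-Pearson intervals. Named sites were the 10 best-ranked kept, lost and gained sites, the 5 largest rises and falls in mean rank percentile among kept sites that held in all pairs of libraries, and list genes nearest to a site within 100 kb. The members and lists were chosen with earlier results of these data known. Alternatives were a score of at least 100, equal list lengths, other overlaps, windows and TSS sets, and leaving out each library. Python 3.11.15, numpy 2.4.6, scipy 1.17.1, pysam 0.24.0 and matplotlib 3.10.9 were used, and the steps were tested on simulated data. Some items are not reported here.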

Additional observations from a re-analysis of the deposited data

How the results depend on the processing

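Leaving out 1 library at a time gave −0.91 to −0.43 for the log2 ratio of peak number, 12.3 to 23.9 percentage points for the promoter-proximal share, 6.10 to 11.3 for the HRE share and −4.68 to −1.82 for the AP-1 share. Motif shares moved with the stretch searched. Over the whole peak the HRE difference was 2.96 points and the AP-1 difference −7.39, and within 50 bp of the centre they were 6.70 and −1.94. The overlap difference ran from −0.68 to 7.55 points and turned sign without WT replicate 2. Kept sites numbered 547 to 762, partly kept 313 to 419, lost 346 to 903, partly gained 116 to 246 and gained 68 to 261, since a genotype with 1 library needs 1 call. With a score of at least 100 there were 287 kept, 141 partly kept, 174 lost, 41 partly gained and 21 gained sites. With lists of equal length there were 108 partly kept, 127 lost and 78 gained sites, and with a call in at least 1 replicate 1075 kept, 1246 lost and 448 gained. With the replicate number as a block, p was 0.5 for peak number and for the promoter, HRE and AP-1 shares, the smallest that pairing allows, and the overlap difference was 2.44 points. The numbers were not taken to pair the libraries, since only 2 pairs exist and their rank differences correlated at r 0.139 over 529 kept sites. Depth is unknown, so a missing call does not show missing binding.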
